A study of Rattus norvegicus with 30 samples.

Results

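Fully methylated autosomal CpGs are described here, meaning the CpG cytosines of the rat medial prefrontal cortex (mPFC) at which nearly every sequenced read was methylated. They were chosen among the CpGs on chromosomes 1 to 20 that had a methylation ratio in 10 or more of 30 rats, and a CpG was taken when the unweighted mean of the ratios over all rats with a value was above 0.9. In total, 8679 CpGs met this rule, which is 13.4% of the 64729 autosomal CpGs with enough rats and 10.2% of all 85484 CpGs of the calls for aged and young rats. The choice used the mean ratio over all rats, so the height of that mean is a description and was not tested. Group labels were not used, but 20 of the 30 rats are aged, so aged rats weigh more in the mean. DNA was taken from the prelimbic and infralimbic mPFC of male Fischer 344 rats and read by whole genome bisulfite sequencing (WGBS), in which methylated cytosines stay cytosine and unmethylated ones are read as thymine. The groups were young rats (5 to 6 months, n = 10), aged impaired rats (AI, 17 to 22 months, n = 9) and aged unimpaired rats (AU, 17 to 22 months, n = 11), all behaviorally tested, and the aged rats were divided by their performance on a set shifting task that measures cognitive flexibility. The tissue holds neurons, glia and vessels together, so a ratio is an average over cell types and over both copies of the chromosome. Each rat gave 1 library.

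In mammals, a methyl group on the cytosine of a CpG is copied after each cell division onto the new strand by the maintenance methyltransferase DNMT1, so that both strands of a CpG usually carry the same state. Most CpGs outside promoters and CpG islands, including those in introns, between genes and in silenced repeats, are highly methylated in adult tissue. Neurons also carry methylation at cytosines that are not followed by guanine (CHG and CHH, where H is any base but G).

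The ratio of a rat at a CpG is the share of reads that were methylated, from 0 to 1, given where at least 5 reads covered the cytosine. The number of reads is not given with the ratio, so the depth behind a single value is unknown beyond this minimum, and no interval is given for it. With 5 or more reads, a ratio under 0.8 requires more than 1 unmethylated read. The number of CpGs with a value stood in for depth, and ranged from 22521 to 70063 per rat over all CpGs and from 2316 to 7402 per rat over the fully methylated ones. By the numbers in their identifiers the rats form 3 series, called A (11 aged and 3 young rats), B (8 aged and 3 young) and C (1 aged and 4 young). The study does not describe the series, which served as a possible batch, and series B had the fewest CpGs with a value.

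The mean ratios of the eligible autosomal CpGs formed a broad peak between 0.75 and 0.95 and a small one near 0, as the plot of mean ratios shows, so that the threshold of 0.9 lies on the upper shoulder of the main peak and does not separate a distinct class. The member CpGs had a median of 0.930, with quartiles of 0.913 and 0.952. Only 106 of the 8679 CpGs had a ratio of 1 in every rat with a value, and 2299 had a mean above 0.95. The name fully methylated is therefore exact for a minority, and most of these CpGs had some unmethylated reads. Just inside the threshold were a CpG on chromosome 16 at position 15005435, with a mean of 0.900011 over 21 rats, 1 on chromosome 5 at position 75639460, at 0.900024 over 28 rats, and 1 on chromosome 3 at position 140487763, at 0.900031 over 13 rats. Just outside it, CpGs on chromosome 1 at positions 40148272 and 201333543 and on chromosome 14 at position 2531687 had a mean of 0.9 over 11, 10 and 11 rats.

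The share of fully methylated CpGs depended on how many rats had a value. It was 18.2% of the CpGs with 10 to 12 rats, 12.8% of those with 16 to 20 rats and 8.31% of those with all 30 rats. The part of read depth in this relation was not tested. The median member had a value in 16 rats, 3007 had 20 or more rats, and 468 had all 30.

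**Figure D1:**
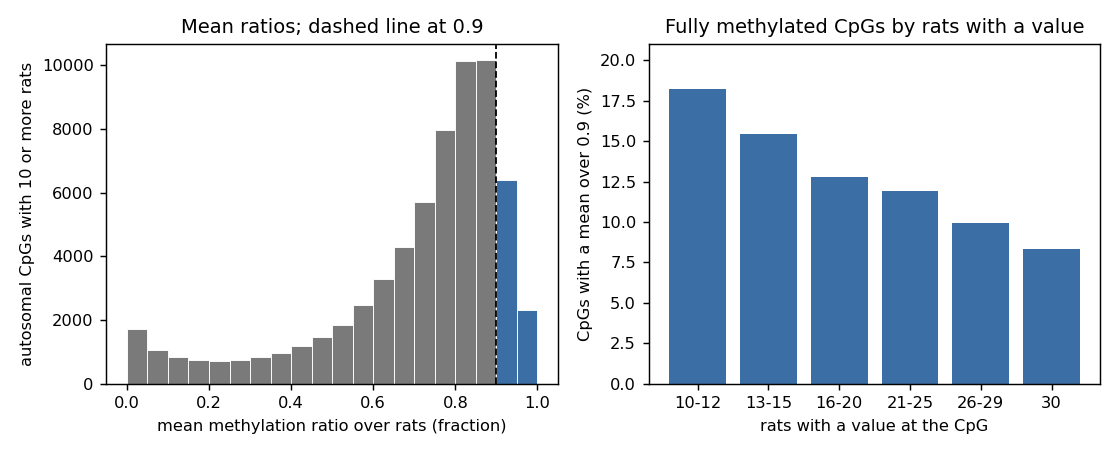
Left, histogram of the mean methylation ratio of the 64729 autosomal CpGs with 10 or more rats (x axis, fraction) with the number of CpGs on the y axis and blue bars above the threshold of 0.9. Right, share of CpGs above 0.9 (y axis, percent) by the number of rats with a value, which falls from 18.2% to 8.31%.

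Over all rats, 152516 ratios were measured at these CpGs. Of these ratios 54.8% were exactly 1, 6.30% were under 0.8 and 0.0387% were under 0.5. At 3146 of the CpGs no rat was under 0.8, and at 59 at least 1 rat was under 0.5. The SD between rats had a median of 0.0876 per CpG, against 0.125 at the 20286 CpGs with a mean between 0.8 and 0.9 and 0.142 at the 53300 intermediately methylated CpGs (mean from 0.1 to 0.9). A ratio cannot exceed 1, so the spread narrows as the mean rises, and these SDs are given as a description.

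The 5 highest means were read among the CpGs with a value in every rat. At chromosome 1, position 39461659, 29 of the 30 rats had a ratio of 1 and a young rat had 0.95, for a mean of 0.998. At chromosome 8, position 17013830, the 20 aged rats ranged from 0.971 to 1 and the 10 young rats from 0.917 to 1, with 26 of the 30 rats at 1. The third, on chromosome 18 at position 38230247, had a lowest ratio of 0.941 and a mean of 0.994. Chromosome 2, position 198755383, had a mean of 0.988, with all 10 young rats at 1 and aged rats from 0.864 to 1, and chromosome 4, position 142076999, had a mean of 0.985, with young rats from 0.867 to 1. In each of these 5 CpGs the aged and young values overlapped.

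At the other end, the member with a value in all 30 rats and the largest SD, on chromosome 6 at position 39486283, had 1 young rat at 0.4 while the other 9 young rats lay between 0.857 and 1 and the aged rats between 0.667 and 1. A CpG on chromosome 16 at position 58094155 ranged from 0.636 to 1 with 15 rats at 1, and 1 on chromosome 15 at position 78974139 from 0.556 to 1 with 16 rats at 1. The CpG on chromosome 1 at position 69142509 ranged from 0.615 to 1. The CpG with the next largest SD after that on chromosome 16, on chromosome 13 at position 51462832, lies 355 bp from a CpG that the study assigned to an intron of Thsd7b, and its ratios divided by behavior. The 9 AI rats lay between 0.875 and 1 (median 1), and the 11 AU rats between 0.600 and 1 (median 0.818). The means were 0.976 ± 0.0484 (SD, n = 9) and 0.814 ± 0.120 (SD, n = 11), with overlapping values. This CpG was named for its large SD, so the difference is a description, and its mean of 0.913 over all rats rests on the AI and young rats, with the AU mean below 0.9. The order was the same within series A (AI 0.975, AU 0.823) and within series B (AI 0.977, AU 0.786). It did not pass when adjusted over all CpGs tested between these groups, where the Benjamini-Hochberg adjusted value was 1.

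Every autosome held fully methylated CpGs. Their share ranged from 10.7% of the eligible CpGs on chromosome 1 to 19.1% on chromosome 16, and was 12.1% on the X chromosome, which was not part of the rule. In windows of 1 Mb with at least 20 eligible CpGs, the median share was 12% over 868 windows, and 50 windows held none. The highest shares were those of 16 of 20 CpGs between 253 and 254 Mb of chromosome 1 (80.0%), 46 of 62 between 117 and 118 Mb of chromosome 7 (74.2%), 14 of 22 between 219 and 220 Mb of chromosome 2 (63.6%), 19 of 30 between 41 and 42 Mb of chromosome 18 (63.3%) and 83 of 135 between 211 and 212 Mb of chromosome 2 (61.5%). Positions are those of the rn5 genome, and no rn5 sequence or annotation was used here, so that genes are named only where the study's own lists of CpGs give them.

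The 8679 CpGs often followed each other along the chromosomes. Of them, 3812 (43.9%) stood in 1463 runs, which are stretches of neighbouring eligible CpGs that were all fully methylated with gaps under 1000 bp, and 78 runs held 5 or more. The longest run held 13 CpGs within 118 bp on chromosome 2 (positions 219119673 to 219119790). Its mean over the run was measured in 14 rats and ranged from 0.905 to 0.992 with a median of 0.964. On chromosome 1, a run of 11 CpGs within 49 bp (253595384 to 253595432) had values in 21 rats. An AU rat with a value at 1 of the 11 CpGs had 0.8 there, and the other 20 rats lay between 0.923 and 1, with the 5 young rats between 0.966 and 1. Also of 11 CpGs were a run on chromosome 7 (117151153 to 117151244), with a mean of 0.954, and a run within 110 bp on chromosome 2 (211292055 to 211292164), which had values in all 30 rats. In this last run the aged rats ranged from 0.888 to 0.981 and the young rats from 0.908 to 0.970. In the first 2 runs and the last the values of young and aged rats overlapped.

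The ratios that the rule averaged were next split, with CpGs chosen in some rats and measured in the others. Opposite strands and neighbouring CpGs were then read, and those with enough rats were themselves classed by the rule. When CpGs were chosen in 1 set of rats and measured in the others, the ratios stayed high but fell towards the threshold. Of 8561 CpGs with a mean above 0.9 in the aged rats, 62.4% were also above 0.9 in the young rats, where their median was 0.919, and 12 were under 0.5. Of CpGs chosen between 0.8 and 0.9 in the aged rats, 20.1% were above 0.9 in the young rats, and of all CpGs 15.9%. The share was 57.6% for CpGs chosen in young and measured in aged rats, 58.2% from series A to series B, and 57.0% from AI to AU rats. About 4 in 10 CpGs above the threshold in 1 set of rats were thus below it in the other, although few were far below. Under 0.8 were 5.40% of the CpGs chosen in aged and measured in young rats.

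The cytosine on the opposite strand of the same CpG gives a second reading of the same site. Such a partner was present for 1886 members, and 1766 of the partners had values in 10 or more rats. The partners had a median of 0.895, with 46.7% above 0.9, 86.5% above 0.8 and 4 under 0.5. Partners of CpGs with a mean between 0.8 and 0.9 were above 0.9 in 17.1% of cases, and partners of all intermediately methylated CpGs in 8.54%. Where both members of a pair are fully methylated each counts as the partner of the other.

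High methylation was also more frequent at neighbouring CpGs, most of all at a short distance. The nearest other eligible CpG, leaving out the opposite strand, was within 2 to 50 bp for 78.7% of the members, a distance at which both often lie on the same read. At this distance 39.9% of the neighbours were above 0.9, against 16.2% next to CpGs with a mean of 0.8 to 0.9 and 10.6% next to intermediately methylated CpGs. From 51 to 200 bp the share was 17.8%, against 10.7% and 8.90%, between 200 and 1000 bp it was 21.2%, against 16.2% and 10.4%, and over 1000 bp it was 17.3%, against 13.6% and 12.9%. CpGs were about as dense around the members, with a median of 4 other eligible CpGs within 500 bp of a fully methylated CpG and 5 around an intermediately methylated one.

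**Figure D2:**
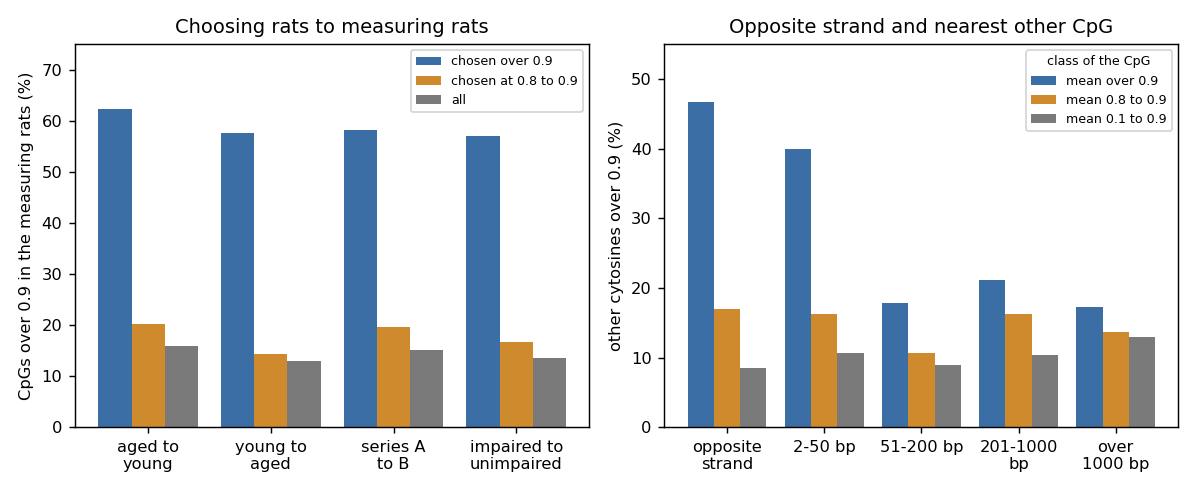
Left, share of CpGs above 0.9 in the measuring rats (y axis, percent) for CpGs chosen in other rats (x axis), with bars for CpGs chosen above 0.9, chosen between 0.8 and 0.9, and all CpGs. Right, share of other cytosines above 0.9 (percent) on the opposite strand and at the nearest other CpG by distance, which for fully methylated CpGs is 46.7%, 39.9% and then 17.3% to 21.2%.

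Non-CpG cytosines near these CpGs were almost unmethylated. Within 100 bp of a fully methylated CpG and of no intermediate one, 7675 CHG cytosines had a mean ratio of 0.0215 ± 0.00224 (SD over 30 rats), with rats from 0.0147 to 0.0242, and 19732 CHH cytosines had 0.0159 ± 0.00158. Near intermediately methylated CpGs the means were 0.0226 for CHG and 0.0161 for CHH. Pooled over the number series, the CHG ratio near members differed by a mean of -0.00106 per rat and was higher in 9 of 30 rats (2-sided permutation of signs, p = 0.00255), but the series did not share it. All 11 rats of series B were lower near members, by a mean of -0.00231 (exact permutation of signs, p = 0.000977), while in series A 8 of 14 rats were higher, with a mean of 0.000235 (exact permutation of signs, p = 0.268), and in series C 4 of 5 rats were lower (exact permutation of signs, p = 0.125). For CHH the pooled difference was -0.000228 (p = 0.316 by permutation of signs), with 0.000552 in series A (higher in 11 of 14 rats) and -0.00114 in series B (lower in 10 of 11 rats). Within 100 bp the sign of these small differences thus followed the series. It also moved with the window, since at 50 bp the pooled values were 0.000427 for CHG and 0.00152 for CHH and at 500 bp -0.00117 and 0.000302. At 50 bp CHH was higher near members in 29 of 30 rats (2-sided permutation of signs, p = 1e-05). Because the sign changed with series and window, no difference between the classes is read from these values. In all, 37984 CHG and 86750 CHH cytosines near both classes were left out.

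Aged and young rats were compared first by each rat's ratios over all members. The rule kept CpGs by the mean of these same ratios, so a CpG with a large loss in aged rats could drop out. The comparison therefore covers the members only and cannot tell whether full methylation is lost with age. The mean ratio over the members with a value was 0.933 ± 0.00272 (SD, n = 20) in aged rats and 0.933 ± 0.00203 (SD, n = 10) in young rats, with aged rats between 0.928 and 0.939 and young rats between 0.929 and 0.936. The difference of 0.000297 was smaller than the SD of either group (2-sided permutation test, p = 0.764). The share of ratios at 1 was 55.4% ± 3.32 in aged and 56.2% ± 2.83 in young rats (p = 0.515), and the share under 0.8 was 6.32% ± 0.528 and 6.44% ± 0.486 (p = 0.565). After adjustment over the 6 comparisons made per rat each of these 3 had a value of 0.893. Within series A the aged minus young difference in the mean was -0.00109 (exact permutation test, p = 0.387), and within series B it was 0.00176, with no detectable difference between the series (p = 0.250). The share of ratios at 1 followed the series more than the age. In series A the means were 53.4% in aged and 53.0% in young rats, and in series B they were 58.4% and 57.8%. Rats of series B had values at a mean of 3570 (aged) and 3236 (young) members, against 6183 and 6768 in series A, and the part of depth in this difference was not tested.

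The same measures did not separate the aged rats by behavior. AI rats averaged 0.933 ± 0.00331 (SD, n = 9) and AU rats 0.933 ± 0.00226 (SD, n = 11), with p = 0.678 in a 2-sided exact permutation test. AI rats had 55.5% ± 3.15 of their ratios at 1 and AU rats 55.3% ± 3.60 (exact permutation test, p = 0.893). Ratios under 0.8 made up 6.29% ± 0.627 of the values of AI rats and 6.34% ± 0.463 of those of AU rats (exact permutation test, p = 0.835).

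**Figure D3:**
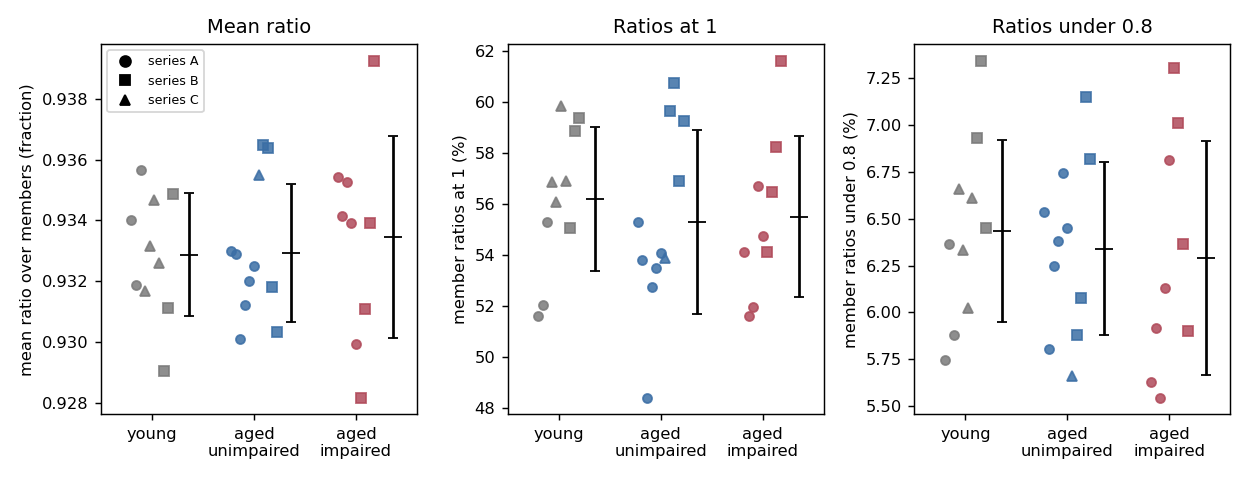
Each point is 1 of the 30 rats, with circles for series A, squares for B and triangles for C, and bars give the mean ± SD of young, AU and AI rats. The y axes are the mean methylation ratio over members (fraction), the share of member ratios at 1 (percent) and the share under 0.8 (percent). The groups overlap in each panel, and the squares lie higher in the share at 1.

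The age difference of the members was also set against that of the intermediately methylated CpGs in the same rats. For the intermediate class the aged rats averaged 0.701 ± 0.00582 and the young rats 0.704 ± 0.00558. The members minus intermediate difference was 0.00255 higher in aged rats (permutation test, p = 0.259). Over the CpGs with a value in all 30 rats, which every rat shares, this difference was 0.00975 (permutation test, p = 0.00013), so that it depended on which CpGs entered. The members alone differed there by 0.00185 between aged and young rats (permutation test, p = 0.245). Within series A, over all members, the members minus intermediate difference was 0.000607 higher in aged rats (exact permutation test, p = 0.780). For series B the value was 0.00190, with p = 0.521 in the same exact test.

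At single CpGs, 604 of the 8679 members differed between aged and young rats at an unadjusted p under 0.05 by the methods' t-test (6.96%), against 6.13% of all 85483 CpGs tested. This test, the 1 the study used at each CpG for age, allows unequal variances and is an approximation with so few rats. Every CpG named for a difference is therefore also given by a permutation test. Where a CpG was named for a small p, both tests used the same ratios, so the permutation p-value is no further evidence. All p-values set a difference against the spread between these rats, and the sampling of reads behind each ratio is part of that spread. Of the 604, 477 were lower and 127 higher in aged rats, which is 5.50% and 1.46% of the members, against 3.72% and 2.41% of all CpGs. The calls were therefore 79.0% lower at members, against 60.9% at intermediately methylated CpGs and 58.8% at CpGs with a mean of 0.8 to 0.9. At 330 of the 477 lower calls every young rat with a value had a ratio of 1, so that the young group had an SD of 0 in the test, and at 13 of the 127 higher calls every aged rat was at 1. Every young rat was at 1 at 1066 of the members and every aged rat at 286, the young group being the smaller one.

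The majority of lower calls depended on the test. By the methods' t-test, 5.60% of members were called without series B, against 6.62% of all CpGs, and 79.7% of these calls were lower, against 63.8%. Without series C the share was 8.18%, against 6.39% of all CpGs, with 80.9% lower, against 62.2%. With at least 5 rats per group it was 6.18%, against 6.58%, with 75.5% lower, against 62%, and with 20 or more rats 6.22%, against 7.1%, with 75.4% lower, against 65%. At a threshold of 0.95 it was 5.05% of 2299 members, against 6.13% of all CpGs, with 10 higher and 106 lower. Without series A, 139 of 4286 members were called (3.24%, against 4.58% of all CpGs), 71 higher and 68 lower, and over all CpGs the calls without series A were 52.5% lower. At members with all 30 rats 31 were called (6.62%, against 9.6% of all such CpGs), 14 higher and 17 lower, which is 54.8% lower, against 69.9%. With limma's moderated test, which shares the spread among CpGs, 378 members passed the unadjusted threshold (4.36%, against 6.64% of all CpGs), and 261 were higher and 117 lower in aged rats, where all CpGs had 2854 higher and 2823 lower calls. On logit ratios limma called 470 members (5.42%, against 6.63%), with 295 higher and 175 lower (2522 and 3148 over all CpGs), and with number series in the model 378 (4.36%, against 6.5%), with 267 higher and 111 lower (2734 and 2822 over all CpGs). Of the 477 lower calls of the methods' t-test 115 were also called by limma on the ratios, and of the 127 higher calls 99. Leaving out the members where either age group was at 1 in every rat, the methods' t-test called 261 of 7433 (3.51%, against 5.57% of all CpGs), with 114 higher and 147 lower. This count holds fewer lower calls by construction, since a member with every young rat at 1 cannot be higher in aged rats. The choice of members bears on direction as well, because the mean over all rats contains more aged than young rats. At 5787 members both age groups had a mean above 0.9, at 1819 the aged group alone and at 1073 the young group alone, so that more members entered through a high aged group, and nothing about direction is read from these counts. Over all members the differences were balanced, with 48.1% higher and 50.6% lower in aged rats and a median difference of -0.000744.

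**Figure D4:**
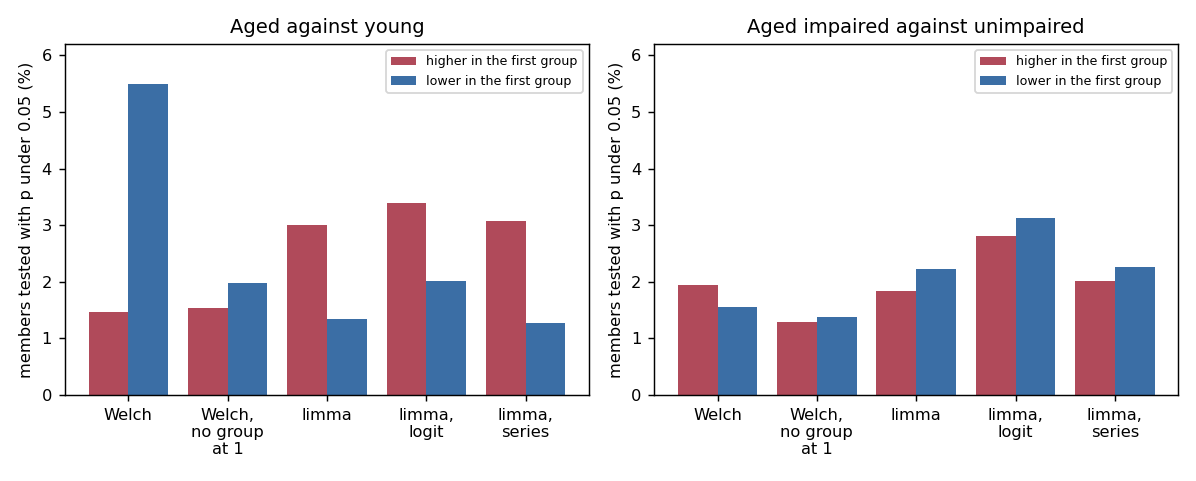
Share of the members tested that had an unadjusted p under 0.05 (y axis, percent), with red bars for higher and blue bars for lower in aged (left) or AI rats (right), by test on the x axis. For age, the methods' t-test (leftmost) gives 1.46% higher and 5.50% lower, while the 3 limma fits give more higher than lower calls.

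After Benjamini-Hochberg adjustment over all CpGs, 4 members passed for age by the methods' t-test, 3 higher and 1 lower, against 0.069% of all CpGs. Each of the 4 is above 0.9 through 1 age group, with the mean of the other group below it. On chromosome 14 at position 74282440, the 3 young rats with a value had 0.833, 0.833 and 0.857, and 12 of 13 aged rats had 1 while 1 had 0.833. This rat, AU rat 7, is the single aged rat of series C and equalled the young rat of that series. The groups overlapped by this aged rat, and the difference of 0.146 had p = 0.00714 in the exact permutation test. On chromosome 16 at position 21938442, the 3 young rats had 0.833, 0.857 and 0.857, and of 9 aged rats 8 had 1 and 1 had 0.9, without overlap (exact permutation test, p = 0.00455). Both rest on 3 young rats. On chromosome 2 at position 66957264, the 7 young rats lay between 0.714 and 0.875 (median 0.8) and the 12 aged rats from 0.8 to 1 with a median of 1. The means were 0.799 in young and 0.963 in aged rats (exact permutation test, p = 0.000238), and the order was the same within series A (0.817 and 0.931) and within series B (0.789 and 1). The lower CpG, on chromosome 2 at position 191291038, had a ratio of 1 in all 7 young rats and from 0.778 to 1 in 18 aged rats, 5 of which were at 1. Its difference was -0.110 (exact permutation test, p = 0.00352), with aged means of 0.897 in series A and 0.859 in series B, while the aged rat of series C was at 1 like the young rats. The adjusted values by the methods' t-test were 0.00271, 0.00953, 0.0475 and 0.0439 in the order given. By limma on ratios no member passed adjustment (against 0.0398% of all CpGs), on logit ratios 3 members did (against 0.0433%) and with number series 3 (against 0.0877%), none of them among the 4. For these 4 the lowest adjusted value by limma on ratios was 0.0926, at position 66957264, and each of the 10 CpGs with the smallest p for age had an unadjusted p under 0.05 by limma as well.

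Of the other 6 of these 10 CpGs, 2 were higher and 4 lower in aged rats, and none passed adjustment. In each of them the mean of 1 age group was below 0.9. The CpG on chromosome 20 at position 42616092 is the only 1 of the 10 with a value in all 30 rats. Its 10 young rats lay between 0.917 and 1 (median 0.969) and its 20 aged rats between 0.692 and 1 (median 0.892). The mean was lower by -0.0795 in aged rats (2-sided permutation test, p = 0.00163). Within series A the means were 0.875 in 11 aged and 0.956 in 3 young rats, and within series B 0.884 in 8 aged and 0.974 in 3 young rats. On chromosome 3 at position 128107259, all 5 young rats were at 1, and 8 of 10 aged rats lay between 0.8 and 0.857 with the other 2, among them the aged rat of series C, at 1 (exact permutation test, p = 0.00733). On chromosome 7 at position 117151463, in the window where 74.2% of CpGs were fully methylated, the 4 young rats lay between 0.8 and 0.857 and the 12 aged rats between 0.833 and 1 (exact permutation test, p = 0.00275). A CpG on chromosome 1 at position 251063271 was higher by 0.149 in aged rats (exact permutation test, p = 0.0182). At the remaining pair, on chromosome 13 at position 38640696 and chromosome 1 at position 232742543, the 3 young rats were all at 1, and the exact permutation test gave p = 0.0661 and p = 0.0875.

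Between AI and AU rats, 272 of the 7791 members that were in the calls for these groups had an unadjusted p under 0.05 by the same unequal-variance test (3.49%, against 4.1% of 80901 CpGs). For impairment the study correlated ratios with trials to criterion, a score not used here, and the comparison of both groups stands in its place. Of these, 151 were higher in AI rats (1.94%, against 2.08%) and 121 lower (1.55%, against 2.01%). By limma on the ratios 317 passed (4.07%, against 5.51%), with 143 higher and 174 lower, on logit ratios 462 (5.93%, against 5.55%), with 219 higher and 243 lower, and with number series in the model 333 (4.27%, against 5.82%), with 157 higher and 176 lower. Neither direction prevailed in all fits. By the same test as in the main comparison, 154 members were higher and 85 lower without series B (3.72%, against 4.14% of all CpGs, of which 1542 were higher and 1167 lower), and at a threshold of 0.95 1.49% of 2011 members were called, 19 higher and 11 lower, against 4.1% of all CpGs. The ratios of the aged rats in these separate calls equalled those in the calls for aged and young rats in 99.9% of cases (within 0.000001), at 30 CpGs a ratio differed, and at none did it differ by more than 0.5.

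A single member passed adjustment for impairment, against 0.00865% of all CpGs. It is above 0.9 through the AU and young rats, with the AI mean below. On chromosome 13 at position 68788712, the 7 AI rats with a value lay between 0.8 and 0.889 (median 0.857), and of 10 AU rats 9 had 1 and 1 had 0.889. The highest AI rat and the lowest AU rat shared the value 0.889, and no AI rat reached 1. The AI mean was 0.842 and the AU mean 0.989 (2-sided exact permutation test, p = 0.000103). The order was the same within series A (0.841 in 4 AI and 1 in 6 AU rats) and within series B (0.844 in 3 AI and 1 in 3 AU rats). By limma this member alone passed on ratios (against 0.00989% of all CpGs) and with number series (against 0.00865%), and it was 1 of 2 on logit ratios (against 0.0111%). The adjusted value of this CpG was 0.0184 by the unequal-variance test, 0.0391 by limma, 0.00649 by limma on logit ratios and 0.00464 by limma with the number series. The 3 young rats with a value had 0.875, 1 and 1. The study's lists give no gene for this position.

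The next 4 CpGs by p for impairment did not pass adjustment, and in each of them the mean of 1 of the groups was below 0.9. On chromosome 11 at position 60846281, 9 AI rats ranged from 0.600 to 0.923 and 8 AU rats from 0.929 to 1, without overlap (exact permutation test, p = 0.000206). On chromosome 13 at position 46237115, all 7 AI rats were at 1 and 9 AU rats ranged from 0.714 to 1 (exact permutation test, p = 0.00184). On chromosome 2 at position 10597198, 8 AI rats had a median of 0.857 and 10 AU rats a median of 1 (exact permutation test, p = 0.000823). On chromosome 3 at position 32018990, 9 AI rats had a median of 0.857 and 11 AU rats a median of 1 (exact permutation test, p = 0.00174).

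**Figure D5:**
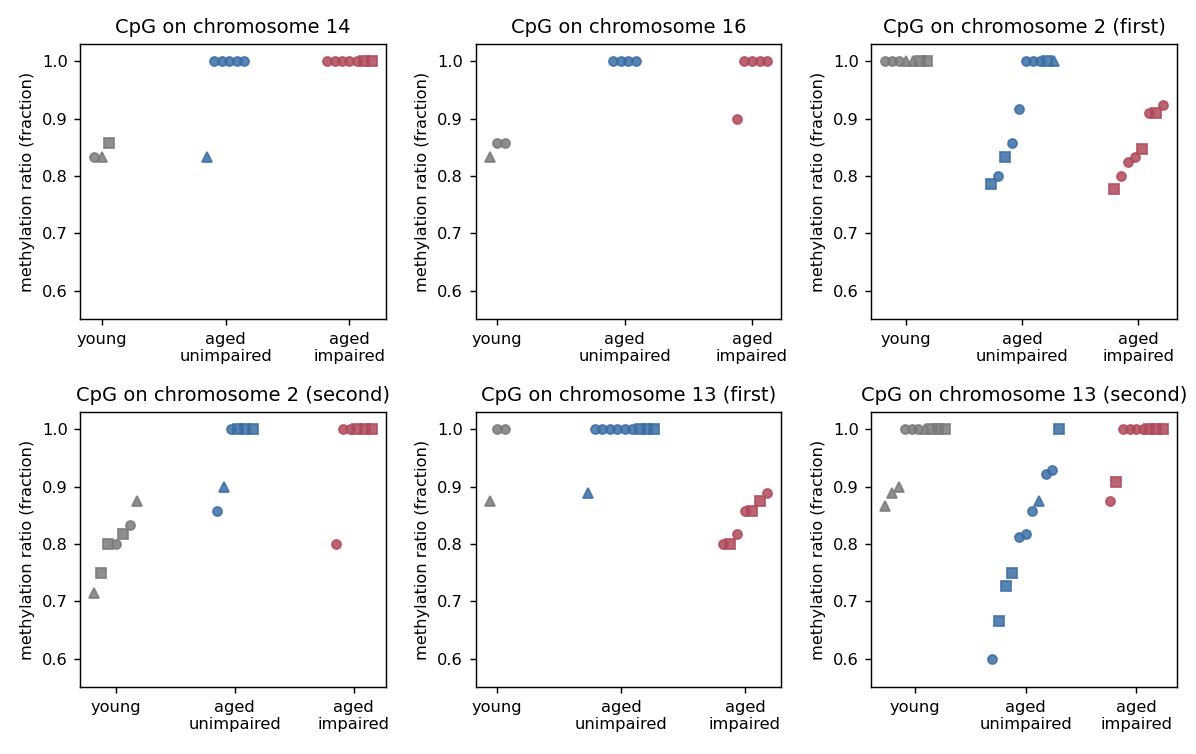
Methylation ratio (y axis, fraction) of each young, AU and AI rat with a value, 1 point per rat, with circles for number series A, squares for B and triangles for C. The first 4 panels are the members that passed adjustment for age, the first chromosome 13 panel is the member that passed for impairment, with AI rats between 0.8 and 0.889, and the second is the CpG near Thsd7b with AI and AU medians of 1 and 0.818.

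The study listed CpGs in gene bodies and promoters that differed with age, or were related to set shifting, and whose methylation was also correlated with the RNA level of the gene, and 55 of the members are on these 2 lists, in 51 genes by the lists' own annotation. Because the lists were drawn from the same rats, they are no independent evidence for a difference, and the p-values below for the comparison that a list was drawn on describe these rats and are no test. Of the 107 listed age CpGs with enough rats 19 were fully methylated (17.8%), of which 14 were lower and 5 higher in aged rats, and of the 248 listed impairment CpGs found here with enough rats 38 were (15.3%), of which 20 were higher and 18 lower in AI rats. None of the listed members lies in a promoter, and 43 of the 57 list entries are in introns. In gene groups set up for the brain, the kinases and phosphatases held 2 members (Insr and Ppp3ca), cell adhesion 1 (Nfasc), ion channels 1 (Cacnb4) and immune and chemosensory genes 1 (Vom2r16). The groups of glutamate and GABA receptors (5 listed CpGs), of postsynaptic scaffold and small GTPase regulators (18) and of presynaptic release (10) held none, and with so few listed CpGs nothing is read from these counts.

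The values in these 5 genes were as follows. In an intron of Ppp3ca, which encodes the catalytic subunit of the calcium-dependent phosphatase calcineurin, the mean was 0.932 in 11 aged and 0.841 in 4 young rats (chromosome 2, position 260544728, exact permutation test, p = 0.0791). In an intron of Insr, the insulin receptor, all 7 young and all 8 AI rats were at 1 and the 9 AU rats had a mean of 0.959 (chromosome 12, position 3865856, AI against AU by exact permutation test, p = 0.206). In Nfasc, which encodes the adhesion protein neurofascin of the axon initial segment and node, 5 AI rats had a mean of 0.871 and 3 AU rats were at 1 (chromosome 13, position 54434209, exact permutation test, p = 0.107). In Cacnb4, a subunit of voltage-gated calcium channels, the means were 0.914 in 4 AI and 0.967 in 5 AU rats (chromosome 3, position 43116097, exact permutation test, p = 0.405). In Vom2r16, a vomeronasal receptor gene, they were 0.95 in 4 AI and 0.849 in 7 AU rats (chromosome 1, position 65331862, exact permutation test, p = 0.303).

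Examples from the 20 listed members with the most rats follow. The CpG in an intron of Thsd7b averaged 0.962 in 15 aged rats and 0.815 in 9 young rats (chromosome 13, position 51462477, exact permutation test, p = 0.00280). At the variable CpG 355 bp away the 20 aged rats averaged 0.887 and the 10 young rats 0.966, which has the other sign. It did not pass by permutation test (p = 0.0658). By the methods' t-test the unadjusted p was 0.0242 and the adjusted value 0.721. In an intron of Ccdc18, a coiled-coil gene, the mean was 0.948 in 14 aged and 0.843 in 7 young rats (chromosome 14, position 2532285, exact permutation test, p = 0.0101). Lower in aged rats were introns of Itga9, the integrin alpha 9 subunit, with 0.880 in 13 aged rats and 1 in each of 6 young rats (chromosome 8, position 126512442, exact permutation test, p = 0.0322), and of Tctn1, a protein of the base of the cilium, with 0.861 in 9 aged rats and 1 in each of 5 young rats (chromosome 12, position 41683448, exact permutation test, p = 0.0165). In an intron of Ccdc175, a CpG of the age list with values in 27 rats, the mean was 0.960 in 18 aged rats and 0.994 in 9 young rats, with p = 0.117 in the exact permutation test. There the 8 AI rats were all at 1 and the 10 AU rats had a mean of 0.928 (chromosome 6, position 104361262, exact permutation test, p = 0.00654). In an intron of Clasp1, a microtubule plus-end protein, 11 aged rats averaged 0.893 and the 4 young rats were at 1, with p = 0.216 in the exact permutation test. In an intron of Scfd2, 10 aged rats averaged 0.882 and 7 young rats 0.982, with p = 0.0792 in the same exact test. The listed impairment CpGs in March1, an E3 ubiquitin ligase gene, Thumpd1 and Lmln had exact permutation p-values for AI against AU rats of 0.168, 0.478 and 0.217, and that in Nckap5 0.838. Of the listed age CpGs named here, those in Thsd7b, Ccdc18, Itga9, Tctn1, Clasp1, Scfd2 and Ppp3ca had 1 age group with a mean below 0.9. Among the listed impairment CpGs named here, those in Nfasc, Vom2r16, March1, Lmln and Nckap5 had an AI or AU mean below 0.9.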

How the data were processed

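WGBS of the mPFC was performed on 30 rats by the authors, who used Trimmomatic and FastQC, filtered for unconverted bases with cscall, mapped reads to rn5 by BSMAP and called methylation at sites with at least 5 reads per rat in at least 3 rats per group (versions are not given in the sources used here). What the filter removed is not given in detail, and its effect on the non-CpG ratios was not tested. The deposited values are fractions, the methylated share of reads for each rat and cytosine, without scaling between rats. Groups come from the sample labels. All 110 columns of rat values in the tables used were assigned to their rat.

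CpGs were taken as fully methylated from their mean over all rats with a value. Welch's test, 2-sided, which the study used for age, was applied at each CpG of the whole table and adjusted by Benjamini-Hochberg over it. Values per rat were compared by permutation of rats, exact or with 100000 resamples. Named CpGs are the 10 and 5 with the smallest p for age and impairment, the 5 with the highest mean and the 5 with the largest SD among those with all 30 rats, the 3 on either side of the threshold, up to 20 listed by the study plus those in the gene groups, and the 3 longest runs. No member had a ratio that differed by over 0.5 between the 2 sets of calls. The members, lists and tests were chosen with earlier results of these data known. The lists name 38 of 51 genes by a current RefSeq symbol and 4 by a synonym. Alternatives were limma on ratios, on logit ratios (offset 0.05) and with the number series, other thresholds (0.95, 20 or 30 rats, 5 rats per group), leaving out series, 1 member per cluster, and other windows for non-CpG cytosines. Leaving out members with a group at 1 in every rat, the fits of single CpGs, and non-CpG ratios within each series were added after seeing the data. The tests were also run on simulated ratios with a fixed read depth, no added spread between rats and a large drop at the changed CpGs. The members have unknown depth and small differences, so this run does not show how the tests behave at them. The tools were limma 3.58.1 in R 4.3.3, and matplotlib 3.10.9, scipy 1.17.1, pandas 2.3.3 and numpy 2.4.6 in Python 3.11.15. Trials to criterion, RNA levels and an rn5 sequence were not used here.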

Additional observations from a re-analysis of the deposited data

Results flagged for a closer look

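In groups of 4 to 10 rats, a rat was marked when its gap to the next rat exceeded the 95% critical value of Dixon's test. That value is set for continuous values. Where all other rats of a group share 1 value, any deviation is marked, so no chance rate is given and no excess is read. Of 43 groups examined 11 were marked, all at single CpGs named for a small p. No other single CpGs were examined, so those named for a high mean or a large SD were left out. No rat was marked in the mean ratio, the shares at 1 and under 0.8 or the non-CpG ratios. Against other rats of their group at 1, an AU rat had 0.833 on chromosome 14 at position 74282440, an AI rat 0.9 on chromosome 16 at 21938442, an AI rat 0.8 on chromosome 2 at 66957264, an AI rat 0.857 on chromosome 7 at 117151463, an AI rat 0.833 on chromosome 1 at 251063271 and an AU rat 0.889 on chromosome 13 at 68788712. A young rat had 0.857 on chromosome 7 at 117151463, where the other 3 had 0.8. Rats at 1.0 stood apart on chromosome 3 at 128107259, 1 AI and 1 AU rat with the others at 0.8 to 0.857, and on chromosome 3 at 32018990, 1 AI rat with the others at 0.818 to 0.909. An AI rat had 0.692 on chromosome 20 at 42616092, below the other 8 at 0.818 to 0.933. The same AU rat (AU rat 7) is the one marked on chromosomes 14, 13 and 3.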

How the results depend on the processing

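The depth of single ratios is unknown and the age groups are unequal in size and in number series, which limits what the per-CpG tests show. Shares of members called for age (6.96% by Welch's test, mostly lower) came to 4.36% with limma, 5.42% on logit ratios and 4.36% with the number series, each mostly higher, to 3.24% without series A, with slightly more higher calls, and to 3.51% with no group at 1 in every rat, which by construction drops mostly lower calls. They stayed mostly lower, at 5.60% without series B (79.7% of calls lower), 8.18% without series C (80.9%), 6.18% with 5 rats per group (75.5%), 6.22% with 20 or more rats (75.4%) and 5.05% at a threshold of 0.95 (91.4%), and less so at 6.62% with all 30 rats (54.8%). For impairment (3.49%, more higher) they came to 4.07%, 5.93% and 4.27% with the 3 limma fits, each with more lower calls. With no group at 1 they came to 2.66%, against 3.84% of all CpGs, again with more lower calls. At a threshold of 0.95 they came to 1.49%. Without series B they were 3.72% (35.6% lower). The cause was not tested. None of the 6 differences per rat passed in any alternative, and their signs turned. For age, the mean was -0.000254 at the threshold of 0.95 and -0.00109 within series A, the percent at 1 was 0.378 within series A and 0.598 within series B, and the percent under 0.8 was 0.119 at 0.95 and 0.204 within series A. For impairment, the mean was -0.000272 with all 30 rats and -0.000651 within series B. The percent at 1 was -0.477 as a deviation from each site's share, -1.81 with all 30 rats and -1.52 within series B, and the percent under 0.8 was 0.0364 at 0.95 and 0.164 within series B. Members minus intermediate CpGs came to 0.00975 with all 30 rats and passed, while the members alone came to 0.00185 there and did not pass. CHG turned to 0.000427 at 50 bp and 0.000235 within series A, passing in neither, and did not pass within series C (-0.00196). CHH turned to 0.00152 at 50 bp, 0.000302 at 500 bp and 0.000552 within series A, and passed in each of them. With the other sign CHH passed as well, with -0.00114 within series B, -0.000722 without cytosines over 0.1 and -0.00048 at 10 or more rats. Of 74 alternative fits of the named single CpGs 71 kept direction and side of the threshold, and 3 kept direction but no longer passed. No paired analysis was possible because each rat belongs to 1 group and the labels do not pair rats.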

Other observations

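Other member CpGs passed adjustment by limma but not by Welch's test, and they were looked at after their values were seen. In each, the mean of 1 of the groups compared was below 0.9, so that it is a member through the other. For age, 3 passed on logit ratios and 3 with number series in the model, 1 of them in both, all higher in aged rats, against 0.0433% and 0.0877% of all CpGs (27 higher and 10 lower on logit ratios, 26 and 49 with number series). None of the 4 that passed by Welch's test is among them. The CpG in both, on chromosome 20 at position 57150846, had a ratio of 1 in all 7 aged rats and 0.667, 0.75, 0.8 and 0.833 in the 4 young rats (exact permutation test, p = 0.00303). On chromosome 9 at position 79342944, all 5 aged rats were at 1 and the 5 young rats between 0.714 and 0.857 (exact permutation test, p = 0.00794). On chromosome 19 at position 39451802, all 8 aged rats were at 1 and the 3 young rats at 0.857, 0.857 and 0.889 (exact permutation test, p = 0.00606). With the number series, the CpG on chromosome 2 at position 67693833 had 15 aged rats from 0.889 to 1 and 6 young rats from 0.615 to 1 (exact permutation test, p = 0.00409), and the CpG on chromosome 7 at position 38749125 had 14 aged rats from 0.889 to 1 and 5 young rats from 0.75 to 1 (exact permutation test, p = 0.00249). For impairment, a second CpG passed on logit ratios, against 0.0111% of all CpGs. On chromosome 11 at position 51996029, all 7 AI rats were at 1 and the 7 AU rats ranged from 0.6 to 0.875, without overlap (exact permutation test, p = 0.000583).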
